A study of Mus musculus with 96 samples.

Results

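Cardiomyocytes are the contractile cells of the heart wall, and the 4 libraries compared here, CM Day 14, were made from mouse hearts 2 weeks after an infarct and set against 4 CM Day 0 libraries from hearts without an infarct. The libraries were taken by their titles, 8 of the 96 total RNA libraries of the series. All mice were male C57Bl/6J animals, 12 to 14 weeks old when operated on, and no transgene is named. The Day 14 mice had a permanent ligation of the left anterior descending coronary artery. The Day 0 mice had no infarct and no sham group was given, so the effects of the ligation and of the operation around it cannot be told apart. Cardiomyocytes were enriched from the digested heart by repeated slow centrifugation, with no surface marker named for their selection. Each library was a pool of RNA from 3 mice (2 where a sample was missing), and the mice of the 2 days were different animals. The study calls the 4 pools of a day both biological and technical replicates, so p-values measure the spread between these pools.

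After an infarct the dead muscle is replaced by a collagen scar laid down by activated fibroblasts, while macrophages clear debris and the surviving muscle carries a higher load. Adult cardiomyocytes draw most of their energy from fatty acids burnt in mitochondria, and under load they are known for a return of genes of the fetal heart, among them the beta myosin heavy chain Myh7 and the natriuretic peptides. The epicardium, the mesothelial sheet around the heart, is also activated by injury and can shed cells into a heart digest.

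The Day 14 libraries held 34103494 to 39500115 estimated reads and the Day 0 libraries 34580079 to 44560230, of which ribosomal RNA took 58.3 to 64.7% at Day 14 and 55.9 to 64.6% at Day 0. Most of it was mitochondrial. Over all 24 CM libraries mt-Rnr2 took 38.2% and mt-Rnr1 19.8% of reads, and the next ribosomal entry, Gm42418, 2.77%. Values with ribosomal RNA genes left out therefore lack these 2 mitochondrial RNAs. Values are given in the order of the replicate numbers, as CPM, read counts relative to library size, with library sizes scaled by TMM, a method that centres the bulk of genes between libraries. In a principal component analysis of the 8 libraries the first component (40.3% of the variance) separated the days, with Day 14 libraries at 7.93 to 37.98 and Day 0 libraries at -33.5 to -17.1, and Day 14 replicate 1 lay nearest to Day 0. The second component (30.7%) ran within the groups. The label was checked against the markers the study uses. The cardiomyocyte markers Tnnt2, Tnni3, Nppb and Actc1 summed to 3994 ± 513 CPM at Day 14 and 4472 ± 1147 at Day 0 (SD, n = 4 each), and the difference did not pass the test (two-sided exact permutation test, p = 0.571, adjusted p = 0.648 over 17 marker lists). With 4 against 4 libraries that test cannot go below 0.0286. With ribosomal RNA genes left out and no TMM scaling the marker sum averaged 10850 CPM at Day 14 and 9986 at Day 0. The direction of the difference thus depended on the scaling.

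Markers of other cells were present at low levels and several moved with the day. The fibroblast markers Fap, Ddr2, Tcf21 and Pdgfra summed to 6.11 ± 1.21 CPM at Day 14 and 3.03 ± 0.956 at Day 0 (SD, n = 4 each, exact permutation p = 0.0286, adjusted p = 0.0694), and Ddr2 and Pdgfra passed the test of all genes. The hematopoietic markers Cd53, Ptprc, Itgal and Itgax summed to 1.22 ± 0.476 CPM at Day 14 and 0.345 ± 0.176 at Day 0 (SD, n = 4 each, exact p = 0.0286, adjusted p = 0.0694). The endothelial markers summed to 68.04 ± 8.87 CPM at Day 14 and 77.2 ± 14.7 at Day 0 (SD, n = 4 each) and did not pass it either (exact p = 0.4, adjusted p = 0.520). Other lists with separate groups at that same smallest p were resting fibroblast, mesothelial, monocyte, resident macrophage and B cell genes. T and NK cell markers summed to 0.241 to 0.566 CPM in Day 14 and 0.196 to 0.479 CPM in Day 0 libraries. In bulk samples fewer cells of a type and less RNA per cell cannot be told apart. Levels set beside other isolates, here and below, are CPM with ribosomal RNA genes left out and without TMM scaling. The isolates differed in makeup on that scale. Protein genes of the mitochondrial genome summed on average to 444600 CPM in CM Day 14 and 20180 in fibroblast Day 14 libraries. The fibroblast markers averaged 16.7 CPM in CM Day 14 and 6.65 in CM Day 0 libraries. In the fibroblast isolates of the same days they averaged 1465 and 2169. The part of these cells in the results that follow was not tested.

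Expression of 14540 genes was tested with the quasi-likelihood test of edgeR on all 24 CM libraries, and a gene was called at a Benjamini-Hochberg adjusted p under 0.05. Of these, 1169 genes (8.04%) were higher and 830 (5.71%) lower at Day 14 than at Day 0. With upper quartile scaling the split was 1306 higher and 520 lower. The CPM of the groups did not overlap for 1437 genes that were higher (9.88%) and 984 that were lower (6.77%) at Day 14. The fold changes were uneven. Among called genes of at least 5 CPM whose groups did not overlap, the 12 that rose most had log2 fold changes of 3.35 to 5.71 (Saa3 aside, for which none is given), and the 12 that fell most of -1.18 to -0.88. Calls in both directions depended on the processing, the lower ones most. In a limma test on log2(TPM + 1), which uses the length-scaled values of the same files, 207 genes were higher and 1 was lower. Without Day 14 replicate 2 the edgeR test called 765 higher and 275 lower. The lower calls were 408 without Day 14 replicate 3, 535 without Day 14 replicate 4 and 533 without Day 0 replicate 1.

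The 12 genes of highest fold change among them were collagens and their crosslinker (Col1a1, Col1a2, Col3a1 and Lox), the beta myosin heavy chain Myh7, and genes of mesothelium and innate immunity (Saa3, Cfb, C3, C1s1, Upk1b, Muc16 and Msln). Saa3 had 1.603, 11.2, 9.17 and 8.85 CPM at Day 14, against 0.0652, 0.0237, 0.0367 and 0.0239 at Day 0. Saa3, an acute phase protein, had no more than 2 reads in any Day 0 library, so no fold is given (adjusted p = 7.79e-05). Col1a1 had 27.5, 45.7, 21.7 and 20.8 CPM at Day 14, against 1.86, 1.49, 1.17 and 1.197 at Day 0. Col1a2 had 39.9, 77.05, 39.7 and 42.8 CPM at Day 14, against 3.85, 2.96, 2.71 and 2.47 at Day 0. These genes encode the chains of type I collagen, the main fibre of scar. They rose by log2 4.34 ± 0.36 (SE, adjusted p = 1.55e-07) and 4.06 ± 0.30 (SE, adjusted p = 2.2e-08). Groups without overlap were required by the rule that named these genes. Myh7 had 86.4, 89.8, 103 and 135 CPM at Day 14, against 7.14, 8.36, 2.02 and 7.16 at Day 0. Myh7, the slow myosin of the fetal ventricle, rose by log2 4.06 ± 0.57 (SE, adjusted p = 8.52e-05), and Day 14 replicate 4 was the highest. On the TPM scale 11 of the 12 were called, and Lox was not (adjusted p = 0.133, limma). Mhrt, an RNA from the opposite strand of this locus, is annotated over Myh7, and strand was not stated for the counting. It averaged 16.2 ± 0.87 CPM at Day 14 and 14.0 ± 1.19 at Day 0 (SD, n = 4 each) and was not called (adjusted p = 0.501).

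The 12 genes of lowest fold change under the same rule were Ptgds, Ano10, Shld1, Rps2, Cox7c, Ttll1, Ncapd2, Mcee, Scn4b, Immp1l, Ces1d and Plbd1. Ptgds had 44.3, 27.1, 40.95 and 37.7 CPM at Day 14, against 85.8, 91.6, 63.4 and 99.2 at Day 0. Ptgds makes prostaglandin D2 (log2 fold change -1.18 ± 0.31, SE, adjusted p = 0.0137), and it lost its call without Day 14 replicate 2. Ano10 had 4.94, 6.37, 5.91 and 6.16 CPM at Day 14, against 11.02, 19.1, 9.098 and 12.9 at Day 0. Ano10, a membrane protein of the anoctamin family, changed by log2 -1.16 ± 0.21 (SE, adjusted p = 0.000725). Cox7c had 61.8, 63.1, 51.99 and 70.03 CPM at Day 14, against 132, 149, 90.8 and 130.5 at Day 0. Cox7c is a subunit of cytochrome c oxidase (log2 fold change -1.03 ± 0.19, SE, adjusted p = 0.000725), Mcee and Immp1l are mitochondrial enzymes of propionate breakdown and of protein import, and Ces1d is a lipase of the carboxylesterase family. Scn4b had 4.12, 4.46, 3.83 and 4.404 CPM at Day 14, against 6.03, 11.6, 5.503 and 8.07 at Day 0. Scn4b, a beta subunit of the cardiac sodium channel, changed by log2 -0.89 ± 0.19 (SE, adjusted p = 0.00269). Ncapd2 overlaps the small RNA Scarna10, and Rps2 the small RNA Snora64 and, on the opposite strand, Snhg9, so reads of these pairs may be shared. Ncapd2 lost its call in 4 of the 8 tests that left out a library, without Day 0 replicate 2 or Day 14 replicate 2, 3 or 4 (adjusted p = 0.0616 to 0.132). None of the 12 was called on the TPM scale, where each kept its direction.

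**Figure D1:**
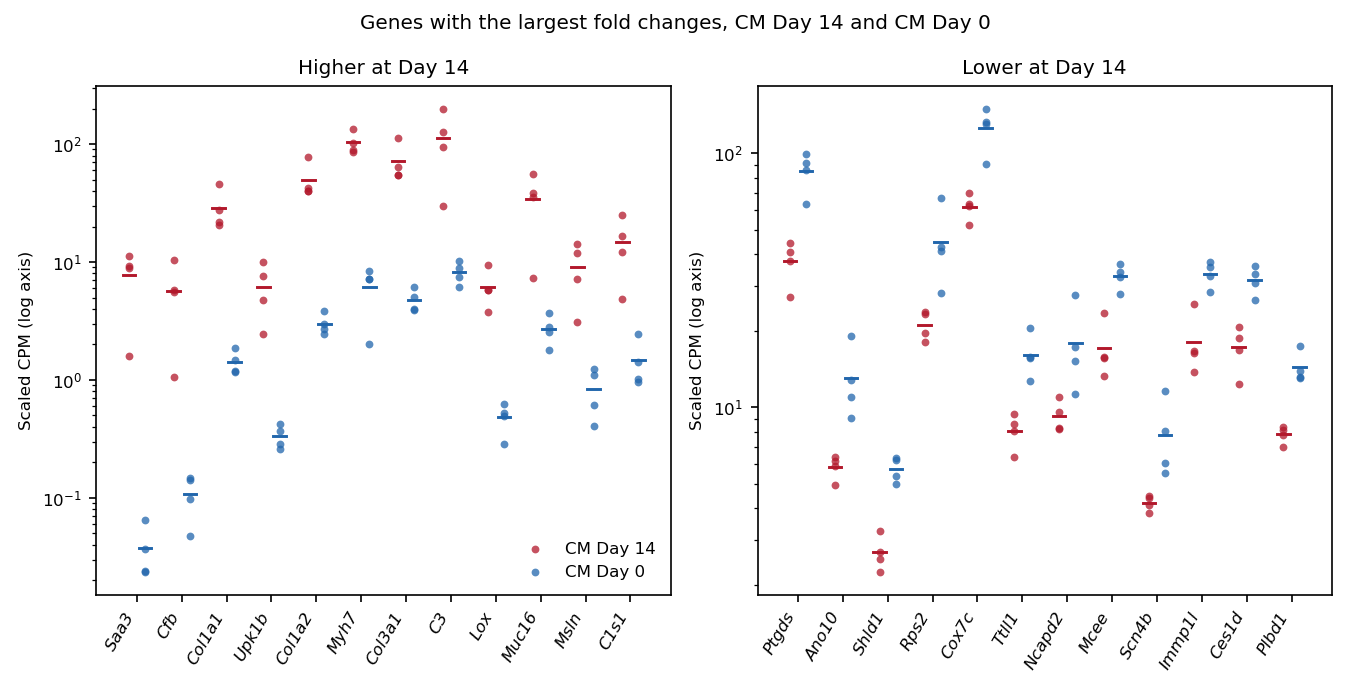
CPM (log axis) of the 12 genes with the highest and the 12 with the lowest fold change in the 4 CM Day 14 (red) and 4 CM Day 0 (blue) libraries. Points are libraries and bars are means. The groups do not overlap for any gene, which the rule for naming them required, and Saa3, Cfb, C3 and Muc16 spread widely among the Day 14 libraries.

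The promoters of the genes at both ends show what sequence lies in front of them. They are given for Saa3 and Col1a2, of the highest fold changes with a promoter entry in that table, and Ptgds and Ano10, of the lowest. Each window runs from 250 bases before to 50 after the start site in RefSeq GRCm38.p6, read 5′ to 3′ on the strand of the gene. Capitals mark the motifs searched on both strands, which were TATAAA for the TATA box, CCAAT for the CCAAT box, GGGCGG for the GC box of Sp1, TGACTCA for the AP-1 site and CATTCC for the M-CAT element that TEAD factors bind.
Saa3 (chr7:46715627-46715926, minus strand): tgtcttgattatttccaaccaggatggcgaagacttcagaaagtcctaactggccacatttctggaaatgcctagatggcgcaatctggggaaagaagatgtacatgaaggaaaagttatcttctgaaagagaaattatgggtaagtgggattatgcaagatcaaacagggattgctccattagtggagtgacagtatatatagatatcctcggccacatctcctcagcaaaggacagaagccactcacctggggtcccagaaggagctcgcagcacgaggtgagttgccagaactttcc
Col1a2 (chr6:4505368-4505667, plus strand): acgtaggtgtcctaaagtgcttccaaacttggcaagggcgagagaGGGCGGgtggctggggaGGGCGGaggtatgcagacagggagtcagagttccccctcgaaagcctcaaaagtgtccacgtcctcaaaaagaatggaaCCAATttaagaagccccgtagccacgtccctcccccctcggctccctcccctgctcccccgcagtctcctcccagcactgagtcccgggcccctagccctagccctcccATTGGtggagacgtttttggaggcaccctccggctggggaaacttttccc
Ptgds (chr2:25469700-25469999, minus strand): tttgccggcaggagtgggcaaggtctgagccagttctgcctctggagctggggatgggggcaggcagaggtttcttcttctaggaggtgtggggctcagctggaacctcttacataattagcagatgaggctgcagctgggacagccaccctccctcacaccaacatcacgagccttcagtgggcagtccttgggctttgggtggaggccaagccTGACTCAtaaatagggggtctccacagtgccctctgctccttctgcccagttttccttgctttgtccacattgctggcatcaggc
Ano10 (chr9:122294374-122294673, minus strand): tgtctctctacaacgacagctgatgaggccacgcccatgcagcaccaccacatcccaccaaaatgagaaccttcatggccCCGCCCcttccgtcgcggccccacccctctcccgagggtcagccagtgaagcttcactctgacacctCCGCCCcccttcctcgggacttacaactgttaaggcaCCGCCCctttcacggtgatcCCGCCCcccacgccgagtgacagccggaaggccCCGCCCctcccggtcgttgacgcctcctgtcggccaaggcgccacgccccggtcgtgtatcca
Saa3 held none of the 5 motifs. Col1a2 held 2 GC boxes 205 and 188 bases before the start, a CCAAT box 109 bases before it, and a second CCAAT box on the other strand at the start itself. Ptgds held 1 AP-1 site 35 bases before the start, and Ano10 held 5 GC boxes, all on the other strand. Over 27025 promoters of this length, GGGCGG was found in 35.9%, CCAAT in 37.9%, CATTCC in 14.6%, TATAAA in 14.2% and TGACTCA in 5.2%. Among promoters of tested genes GGGCGG was found in 56.7% of 815 that were higher at Day 14, 61.6% of 627 that were lower and 62.3% of all 10521. In the same order CCAAT was found in 293, 271 and 4094 promoters, CATTCC in 14.0%, 11.3% and 12.3%, TATAAA in 12.4%, 5.9% and 8.0%, and TGACTCA in 6.1%, 4.1% and 3.6%. These shares were not tested. These are matches of letters, not sites shown to be bound.

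Genes of the scar matrix were raised. Of 22 fibrillar and network collagen genes tested, 19 were higher and none lower at Day 14, with a median log2 fold change of 2.42 over the list against -0.0031 over all genes. The members summed to 276 ± 78.8 CPM at Day 14 and 73.9 ± 15.3 at Day 0 (SD, n = 4 each). Col3a1 had 54.99, 112, 64.1 and 54.5 CPM at Day 14, against 6.098, 5.09, 4.04 and 3.93 at Day 0. Col3a1, the second collagen of scar, rose by log2 3.90 ± 0.29 (SE, adjusted p = 2.2e-08), and Day 14 replicate 2 was the highest. Col5a2, which joins type I fibres and sets their width, rose by 3.26 ± 0.30 (SE, adjusted p = 2.66e-07), and Col12a1, a linker between fibres, by 4.00 ± 0.48 (SE, adjusted p = 8.98e-06). Without Day 14 replicate 2, 14 of the 22 were higher. On the TPM scale 6 of the 16 with enough TPM were called higher.

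Of 22 matricellular and scar protein genes, 18 were higher and none lower (median 2.26), and 3 of the 11 with enough TPM were called higher on the TPM scale. Postn had 12.5, 11.6, 14.2 and 5.24 CPM at Day 14, against 1.86, 1.75, 2.68 and 2.08 at Day 0. Periostin (Postn), a secreted mark of activated fibroblasts, rose by log2 2.38 ± 0.39 (SE, adjusted p = 0.000334). Fn1 had 18.4, 51.9, 20.4 and 29.4 CPM at Day 14, against 4.96, 4.85, 2.83 and 4.69 at Day 0. Fibronectin (Fn1) rose by 2.79 ± 0.38 (SE, adjusted p = 4.46e-05). Sparc had 70.7, 88.2, 58.2 and 62.7 CPM at Day 14, against 30.3, 25.6, 22.4 and 20.1 at Day 0. Sparc, a collagen-binding protein, rose by 1.51 ± 0.22 (SE, adjusted p = 6.67e-05). Tenascin C (Tnc), made in healing tissue, was at 0.8803, 2.601, 0.534 and 1.34 CPM at Day 14, against 0.0326, 0.0947, 0.0367 and 0.0479 at Day 0. Cthrc1, a mark of scar-forming fibroblasts, had no more than 2 reads in a Day 0 library and 0.912, 0.966, 0.386 and 0.723 CPM in Day 14 libraries (adjusted p = 4.81e-05).

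Lists of finer parts of the matrix also held genes that were higher, though not to the same degree. Of 9 small leucine-rich proteoglycans, which coat collagen fibres, 5 were higher. Dcn had 34.4, 45.7, 42.8 and 36.7 CPM at Day 14, against 17.9, 9.92, 14.01 and 7.996 at Day 0. Decorin (Dcn), which binds type I collagen, rose by log2 1.68 ± 0.27 (SE, adjusted p = 0.00018). Of 17 elastic fibre genes 10 were higher, elastin (Eln) by 2.74 ± 0.36 (SE, adjusted p = 2.88e-05) and fibrillin 1 (Fbn1) by 1.71 ± 0.27 (SE, adjusted p = 0.000171). Of 16 crosslinking and processing genes 7 were higher and 9 were not called, with a list median of 0.11. The members summed to 161 ± 9.84 CPM at Day 14 and 144 ± 20.9 at Day 0 (SD, n = 4 each). Lox had 5.82, 9.46, 5.76 and 3.77 CPM at Day 14, against 0.522, 0.497, 0.624 and 0.287 at Day 0. Lox, the lysyl oxidase that joins collagen chains, rose by log2 3.71 ± 0.36 (SE, adjusted p = 1.02e-06), and Pcolce, which aids the trimming of procollagen, by 1.41 ± 0.22 (SE, adjusted p = 0.000106). Of 19 metalloproteinases and inhibitors 11 were higher and 1, the inhibitor Timp4, was lower. Timp1 had 1.603, 5.82, 2.11 and 4.097 CPM at Day 14, against 0.1304, 0.331, 0.147 and 0.144 at Day 0. Timp1, an inhibitor, rose by 4.11 ± 0.50 (SE, adjusted p = 1.4e-05), and Mmp2, a gelatinase, by 2.33 ± 0.32 (SE, adjusted p = 2.53e-05). Timp4 fell to 1.48 ± 0.775 CPM at Day 14, against 3.77 ± 1.53 at Day 0 (SD, n = 4 each), and its groups overlapped (log2 fold change -1.32 ± 0.37, SE, adjusted p = 0.0223), a call lost without Day 14 replicate 2 or 3 or Day 0 replicate 1.

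Signals linked to fibroblasts were also higher. Of 24 genes of the TGF beta family 6 were higher. Tgfb2 had 6.13, 4.81, 5.73 and 5.37 CPM at Day 14, against 2.05, 1.61, 1.83 and 1.82 at Day 0. Tgfb2, a ligand, rose by log2 1.59 ± 0.20 (SE, adjusted p = 1.29e-05), its receptor Tgfbr2 by 0.64 ± 0.11 (SE, adjusted p = 0.000252), and Gdf15, a stress-induced member, by 2.62 ± 0.40 (SE, adjusted p = 8.92e-05). Of 16 myofibroblast contractile genes 8 were higher, among them vimentin (Vim) by 1.37 ± 0.20 (SE, adjusted p = 4.1e-05) and S100a6 by 2.47 ± 0.32 (SE, adjusted p = 2.02e-05). Acta2 had 33.1, 18.3, 23.9 and 30.6 CPM at Day 14, against 13.3, 22.2, 14.8 and 18.3 at Day 0. Acta2, smooth muscle actin, was called (log2 fold change 0.62 ± 0.21, SE, adjusted p = 0.0465) although 1 Day 0 library stood above the lowest Day 14 library, and 6 of the 8 tests that left out a library lost the call. Of 7 secreted Wnt antagonists 3 were higher. Sfrp2 had no more than 3 reads in any Day 0 library, and 3.74, 5.35, 3.798 and 2.58 CPM in Day 14 libraries (adjusted p = 7.58e-08). Of 14 genes of the insulin-like growth factor axis 7 were higher, Igfbp6 by 1.92 ± 0.35 (SE, adjusted p = 0.000633) and the receptor Igf1r by 0.38 ± 0.09 (SE, adjusted p = 0.00825). In the fibroblast isolates, with ribosomal RNA genes left out, Col1a1 averaged 6712 CPM at Day 14 and 1684 at Day 0, against 79.2 and 3.18 in CM. Of the 14 resting fibroblast genes 7 were higher in CM, summing to 76.1 ± 6.005 CPM at Day 14 and 35.6 ± 8.07 at Day 0 (SD, n = 4 each). Their part in the matrix result was not tested.

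**Figure D2:**
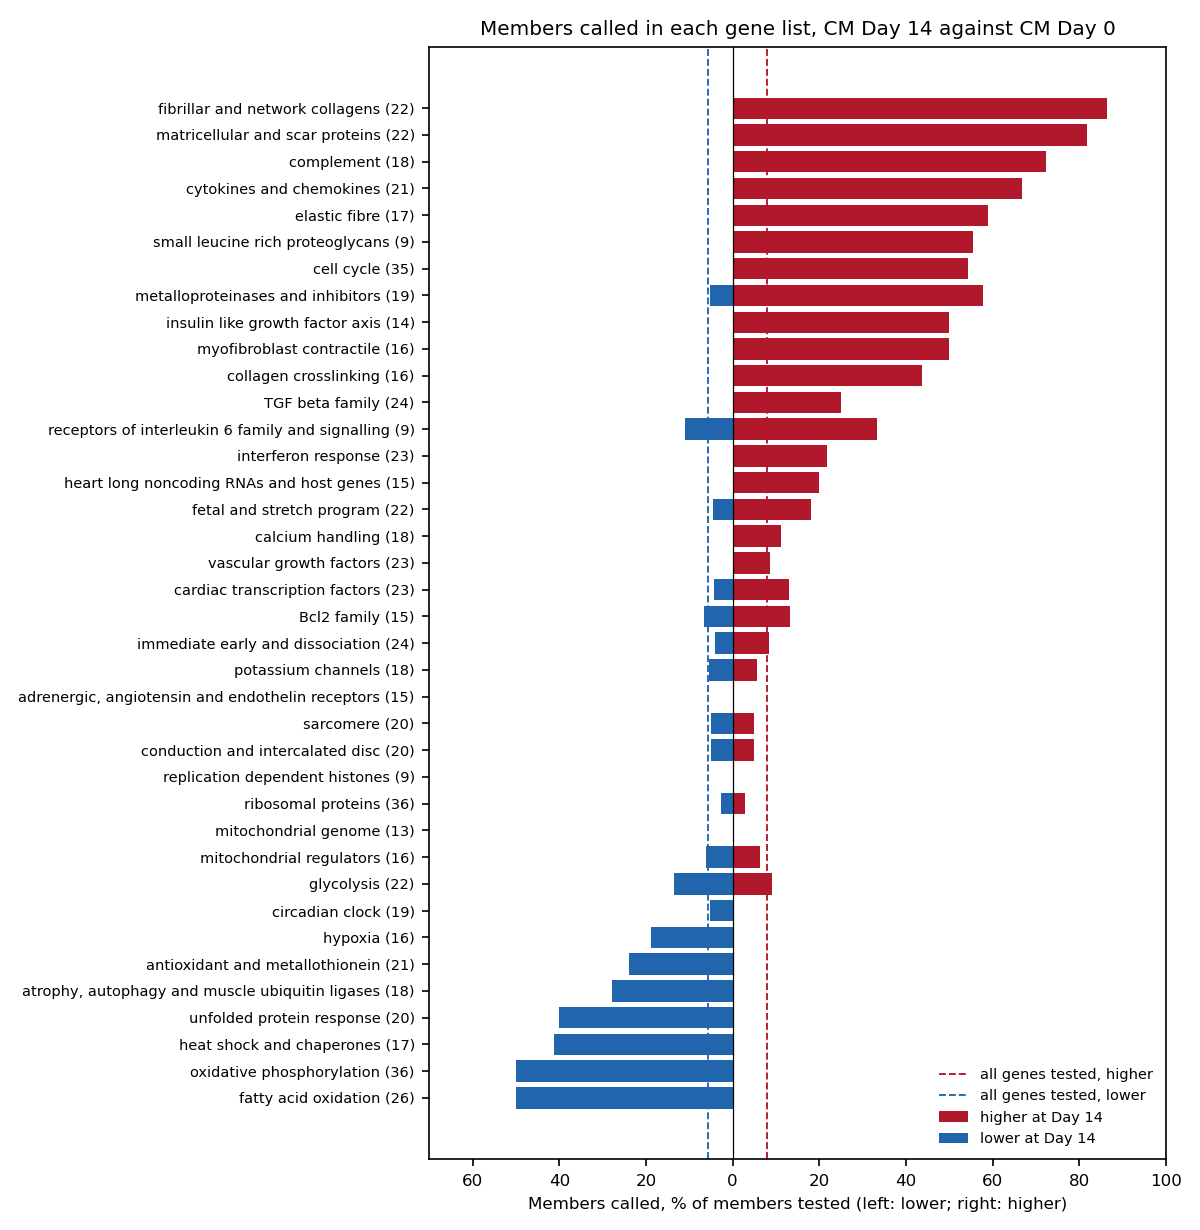
Percent of tested members (number in brackets) called higher (red, right) or lower (blue, left) at CM Day 14 against CM Day 0 in each list of genes grouped by function with at least 9 tested members, the cell marker lists being left out. Dashed lines give the share over all 14540 genes, 8.04% higher and 5.71% lower. Collagens, scar proteins and complement stand at the top of these lists, and fatty acid oxidation and oxidative phosphorylation, with 50% of members lower, at the bottom.

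Every one of the 10 mesothelial genes tested was higher at Day 14 (median log2 fold change 3.43), and 10 were higher whichever library was left out. Muc16 had 7.39, 55.5, 35.8 and 38.2 CPM at Day 14, against 2.54, 3.72, 2.79 and 1.79 at Day 0. Muc16, a surface mucin, rose by log2 3.66 ± 0.53 (SE, adjusted p = 0.00012). Msln had 3.11, 14.2, 7.21 and 12.03 CPM at Day 14, against 0.6195, 1.23, 0.404 and 1.101 at Day 0. Mesothelin (Msln) rose by 3.40 ± 0.48 (SE, adjusted p = 6.84e-05). Upk1b had 2.45, 9.94, 4.78 and 7.56 CPM at Day 14, against 0.424, 0.2604, 0.367 and 0.287 at Day 0. Uroplakin 1b (Upk1b), a membrane protein, rose by 4.23 ± 0.34 (SE, adjusted p = 3.33e-08). Wt1, the transcription factor of the epicardium, averaged 3.23 ± 1.59 CPM at Day 14 and 0.95 ± 0.249 at Day 0 (SD, n = 4 each), a change of log2 1.77 ± 0.26 (SE, adjusted p = 6.62e-05). The 10 genes summed to 78.6 ± 40.5 CPM at Day 14 and 8.48 ± 1.61 at Day 0 (SD, n = 4 each). The Day 14 libraries were not alike. All 10 genes were lowest in replicate 1 and 8 were highest in replicate 2, where over all genes tested 32.3% were lowest in replicate 1 and 23.2% highest in replicate 2. In the fibroblast, endothelial and hematopoietic isolates of Day 14 the same genes, with ribosomal RNA left out, averaged 395.9, 479.9 and 81.6 CPM, against 217.6 in CM.

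Complement genes were 13 of 18 higher and none lower (median 2.37), and at least 13 were higher whichever library was left out. C3 had 29.8, 198, 95.4 and 127 CPM at Day 14, against 8.97, 10.3, 6.2 and 7.397 at Day 0. C3, the central component, rose by log2 3.77 ± 0.43 (SE, adjusted p = 1.08e-05). Cfb had 1.07, 10.4, 5.58 and 5.74 CPM at Day 14, against 0.0978, 0.142, 0.147 and 0.0479 at Day 0. Cfb, which forms the alternative pathway convertase, rose by 5.71 ± 0.70 (SE, adjusted p = 1.96e-05). The protein-coding gene model Gm20547 overlaps Cfb on the same strand, so reads of this pair may be shared. C1s1 had 4.84, 25.2, 12.2 and 16.6 CPM at Day 14, against 2.48, 1.02, 1.43 and 0.958 at Day 0. C1s1, a protease of the classical pathway, rose by 3.35 ± 0.38 (SE, adjusted p = 7.88e-06), and a second gene model, Gm16567, overlaps it. Serping1, which blocks that protease, rose by 2.27 ± 0.31 (SE, adjusted p = 2.75e-05). Of the 18 complement genes 10 were lowest in Day 14 replicate 1 and 11 highest in replicate 2, C3, Cfb and C1s1 among both. All 10 mesothelial genes were lowest in replicate 1 and 8 were highest in replicate 2. Of 22 collagen genes 17 were highest in replicate 2 too. The part of these lists in one another's change was not tested.

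**Figure D3:**
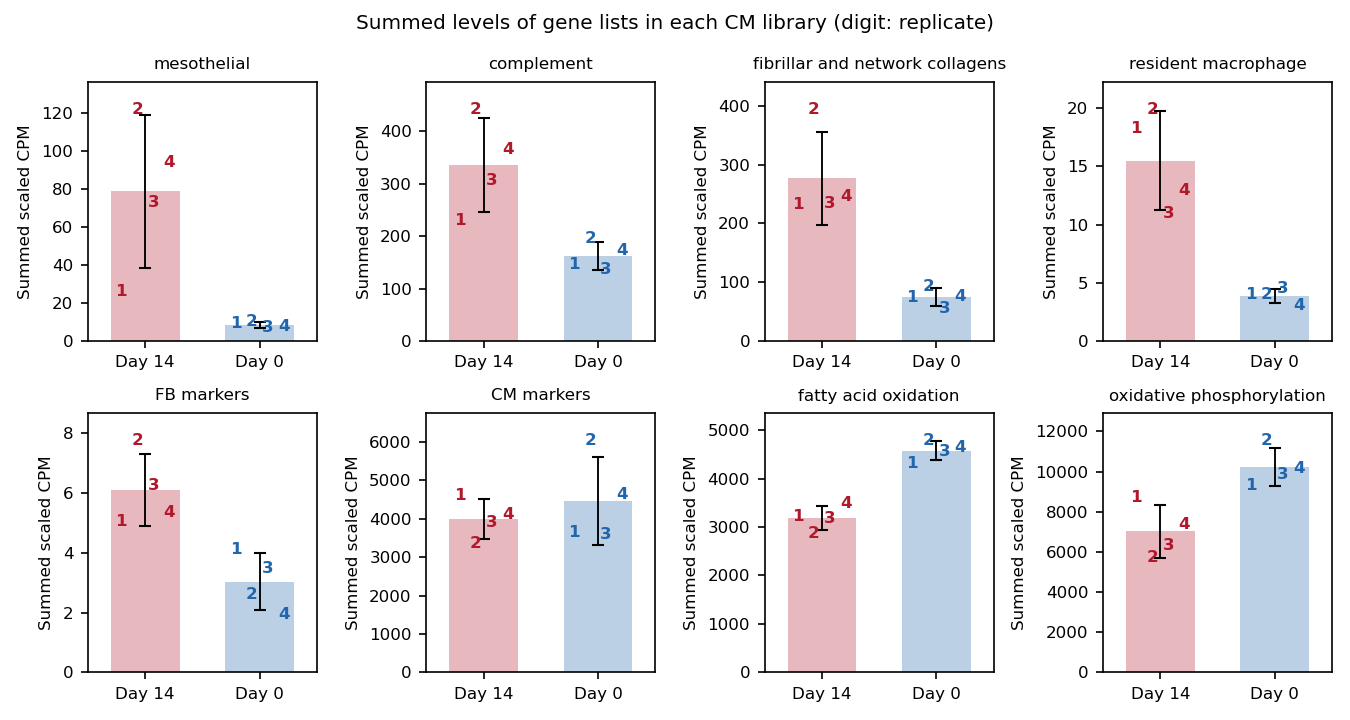
Summed CPM of 8 gene lists in each CM library, Day 14 (red) left of Day 0 (blue). Bars are means, error bars SD (n = 4), and digits are the replicate numbers. Mesothelial sums spread over 25.9 to 121.8 at Day 14, with replicate 1 lowest and replicate 2 highest, while cardiomyocyte marker sums of the days overlap.

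Genes of immune cells rose at low levels. Of 12 resident macrophage genes tested 10 were higher, and 7 without Day 14 replicate 2. Lyz2 had 8.87, 10.4, 4.303 and 5.59 CPM at Day 14, against 1.21, 1.16, 1.47 and 0.79 at Day 0. Lyz2, lysozyme of myeloid cells, rose by log2 2.67 ± 0.36 (SE, adjusted p = 3.7e-05), the growth factor receptor Csf1r by 2.16 ± 0.41 (SE, adjusted p = 0.000915) and the complement gene C1qb by 2.58 ± 0.53 (SE, adjusted p = 0.0018). The list summed to 15.5 ± 4.26 CPM at Day 14 and 3.86 ± 0.612 at Day 0 (SD, n = 4 each), while in the hematopoietic isolates, with ribosomal RNA genes left out, it averaged 14240 CPM at Day 14 and 11760 at Day 0, against 42.4 and 8.49 in CM. The 4 tested MHC class II genes were all higher, and H2-Aa, which presents antigen, rose by 1.26 ± 0.29 (SE, adjusted p = 0.00486), but 1 was higher without Day 14 replicate 1 and 2 without Day 0 replicate 1. Of 4 tested B cell genes 2, both of immunoglobulin chains, were higher. Ighm was at 2.73, 8.597, 1.81 and 2.76 CPM at Day 14, against 0.163, 0.189, 0.0367 and 0.359 at Day 0. Igkc was at 3.08, 3.79, 1.93 and 2.08 CPM at Day 14, against 0.0652, 0, 0 and 0.287 at Day 0. Of 7 monocyte genes 5 were higher, of which Fn1, Thbs1 and Vcan are also made by fibroblasts, and of 9 genes of lipid-associated macrophages Trem2, Spp1, Gpnmb and Lgals3 were higher. Lgals3 lost its call in 6 of the 8 tests that left out a library. With the 8 libraries alone 3 of the monocyte, 2 of the MHC class II and, of the interferon response genes described next, 3 were higher. No neutrophil gene of 5 tested was called by edgeR or DESeq2 (1 higher and 0 lower at an unadjusted p under 0.05), and Cxcr2, their chemokine receptor, was at 13.6, 8.498, 10.1 and 7.45 CPM at Day 14, against 13.7, 10.6, 10.4 and 14.2 at Day 0.

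Of 21 cytokine and chemokine genes 14 were higher and none lower (median 2.41). Il33 had 1.26, 4.91, 2.61 and 3.62 CPM at Day 14, against 0.489, 0.2604, 0.367 and 0.192 at Day 0. Il33, an alarm cytokine of stromal cells, rose by log2 3.29 ± 0.35 (SE, adjusted p = 1.38e-06). Ccl2 had 0.534, 2.65, 0.415 and 1.14 CPM at Day 14, against 0.0652, 0.07102, 0.2201 and 0.0479 at Day 0. Ccl2, which draws monocytes, rose by 3.65 ± 0.60 (SE, adjusted p = 0.00023). Cxcl1 had 1.82, 4.43, 0.534 and 2.54 CPM at Day 14, against 0.391, 0.189, 0.3302 and 0.192 at Day 0. Cxcl1, which draws neutrophils, rose by 3.13 ± 0.48 (SE, adjusted p = 0.00013). Cxcl5 had 1 read among the Day 0 libraries and 0.723, 3.59, 1.19 and 2.04 CPM in Day 14 libraries (adjusted p = 3.48e-05). Of 9 genes of interleukin 6 family receptors and signalling, 3 were higher, Osmr, Socs3 and Il6ra, and 1, the kinase Jak1, was lower (log2 fold change -0.53 ± 0.09, SE, adjusted p = 0.000334). Osmr, a receptor subunit, rose by 0.93 ± 0.19 (SE, adjusted p = 0.0015). Il6ra lost its call in 6 of the 8 tests that left out a library. Of 23 interferon response genes 5 were higher, of which Oasl2 rose by 1.77 ± 0.23 (SE, adjusted p = 1.63e-05), and 3 without Day 14 replicate 2 or Day 0 replicate 4.

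Cell cycle genes were raised at low levels, 19 of the 35 tested being called higher and 0 lower (median 1.29). Top2a had 2.33, 3.79, 2.05 and 3.13 CPM at Day 14, against 0.424, 0.4498, 0.367 and 0.575 at Day 0. Top2a, the topoisomerase of dividing cells, rose by log2 2.62 ± 0.24 (SE, adjusted p = 2.44e-07). Mki67 had 1.85, 4.76, 1.93 and 3.37 CPM at Day 14, against 0.489, 0.331, 0.697 and 0.359 at Day 0. Mki67, a protein of the chromosome surface in dividing cells, rose by 2.71 ± 0.40 (SE, adjusted p = 8.05e-05). The list summed to 127 ± 7.68 CPM at Day 14 and 90.5 ± 4.37 at Day 0 (SD, n = 4 each). Of 35 members 21 were highest in Day 14 replicate 2, and without that library 15 were higher. None of the 13 with enough TPM was called on the TPM scale, and none of 9 tested replication-dependent histone genes was called by edgeR or DESeq2 (1 higher and 0 lower at an unadjusted p under 0.05). Which cells carried these transcripts was not tested.

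Few contractile genes of the cardiomyocyte itself were called. Of 20 sarcomere genes 1, Myh7, was higher and 1, Myoz2, lower (median -0.09, and 0.20 on log2(TPM + 1)), near the share over all genes. Myoz2 had 238, 156, 188 and 188 CPM at Day 14, against 312, 328, 307 and 279.6 at Day 0. Myoz2, a Z-disc protein that binds calcineurin, fell by the test (log2 fold change -0.67 ± 0.15, SE, adjusted p = 0.00406). Myh6, the alpha myosin of the adult mouse heart, averaged 2748 ± 612 CPM at Day 14 and 2770 ± 1333 at Day 0 (SD, n = 4 each), and was not called (adjusted p = 0.987). It was named after its value was seen. Of 22 genes of the fetal and stretch program 4 were higher, Myh7, Ankrd1, Enah and Acta2, and 1, the LIM protein Fhl2, was lower. Without Day 14 replicate 3, and with the 8 libraries alone, 2 were higher, and Fhl2 lost its call without 5 of the 8 libraries. Ankrd1 had 543, 455, 605 and 374 CPM at Day 14, against 273, 228, 309 and 276 at Day 0. Ankrd1, a stretch-responsive titin partner, rose by 0.87 ± 0.18 (SE, adjusted p = 0.00202). Nppa had 851, 516, 494 and 389 CPM at Day 14, against 260.3, 305, 76.7 and 306 at Day 0. Nppa, the atrial natriuretic peptide, did not overlap between the groups but was not called (log2 fold change 1.25 ± 0.47, SE, adjusted p = 0.0837), and Nppb, the brain natriuretic peptide, was at 267, 129.6, 214 and 127 CPM at Day 14, against 143, 165, 142 and 85.8 at Day 0, with overlapping groups. Atrial genes as a list summed to 983 ± 307 CPM at Day 14 and 611 ± 229 at Day 0 (SD, n = 4 each, exact permutation p = 0.0857, adjusted p = 0.162), and none of the 8 was called by edgeR (1 by DESeq2, 1 higher and 0 lower at an unadjusted p under 0.05).

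Ion handling genes were called at shares near those over all genes, and the single genes given here are no result about their lists. Of 18 calcium handling genes 2 were higher. Slc8a1 had 237, 265, 288 and 223 CPM at Day 14, against 174, 178, 175 and 176 at Day 0. Slc8a1, the sodium-calcium exchanger, rose by log2 0.52 ± 0.17 (SE, adjusted p = 0.0436), a call lost in 6 of the 8 tests without 1 library, and Itpr2, an intracellular calcium channel, by 0.49 ± 0.13 (SE, adjusted p = 0.0112), a call lost without Day 14 replicate 4. Atp2a2, the calcium pump of the reticulum, named after its value was seen, was at 2284 ± 144 CPM at Day 14 and 2997 ± 106 at Day 0, apart in all libraries but just short of the threshold (log2 fold change -0.39 ± 0.14, SE, adjusted p = 0.0587). Of 18 potassium channel genes Kcna4, which carries a transient outward current, was higher at 1.45, 1.44, 1.22 and 0.986 CPM at Day 14, against 0.685, 0.616, 0.477 and 0.407 at Day 0 (log2 fold change 1.21 ± 0.27, SE, adjusted p = 0.00362), and Kcnv2, a silent subunit, was lower at 1.57, 1.71, 1.66 and 2.06 CPM at Day 14, against 3.29, 3.29, 3.71 and 4.501 at Day 0 (log2 fold change -1.07 ± 0.26, SE, adjusted p = 0.00635). Of 20 conduction and intercalated disc genes the connexin Gjc1 was higher (log2 fold change 0.41 ± 0.14, SE, adjusted p = 0.0484), a call lost in 7 of 8 tests without 1 library, and Scn4b lower. None of 15 adrenergic, angiotensin and endothelin receptor genes was called by edgeR or by DESeq2 (0 higher and 0 lower at an unadjusted p under 0.05). Of 23 cardiac transcription factor genes Runx1, Twist1 and Sox9 were higher. Runx1 had 1.29, 2.701, 1.36 and 1.58 CPM at Day 14, against 0.163, 0.142, 0.0734 and 0.215 at Day 0. Runx1 rose by log2 3.48 ± 0.39 (SE, adjusted p = 3.01e-06). Klf15, a regulator of lipid use in the heart, was lower at 5.66, 4.06, 3.89 and 6.97 CPM at Day 14, against 9.55, 7.74, 9.65 and 9.38 at Day 0 (log2 fold change -0.82 ± 0.23, SE, adjusted p = 0.019), a call lost without Day 14 replicate 2 or 3. In the fibroblast and hematopoietic isolates of Day 14 Runx1 averaged 163.1 and 280.0 CPM with ribosomal RNA genes left out, against 4.77 in CM.

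**Figure D4:**
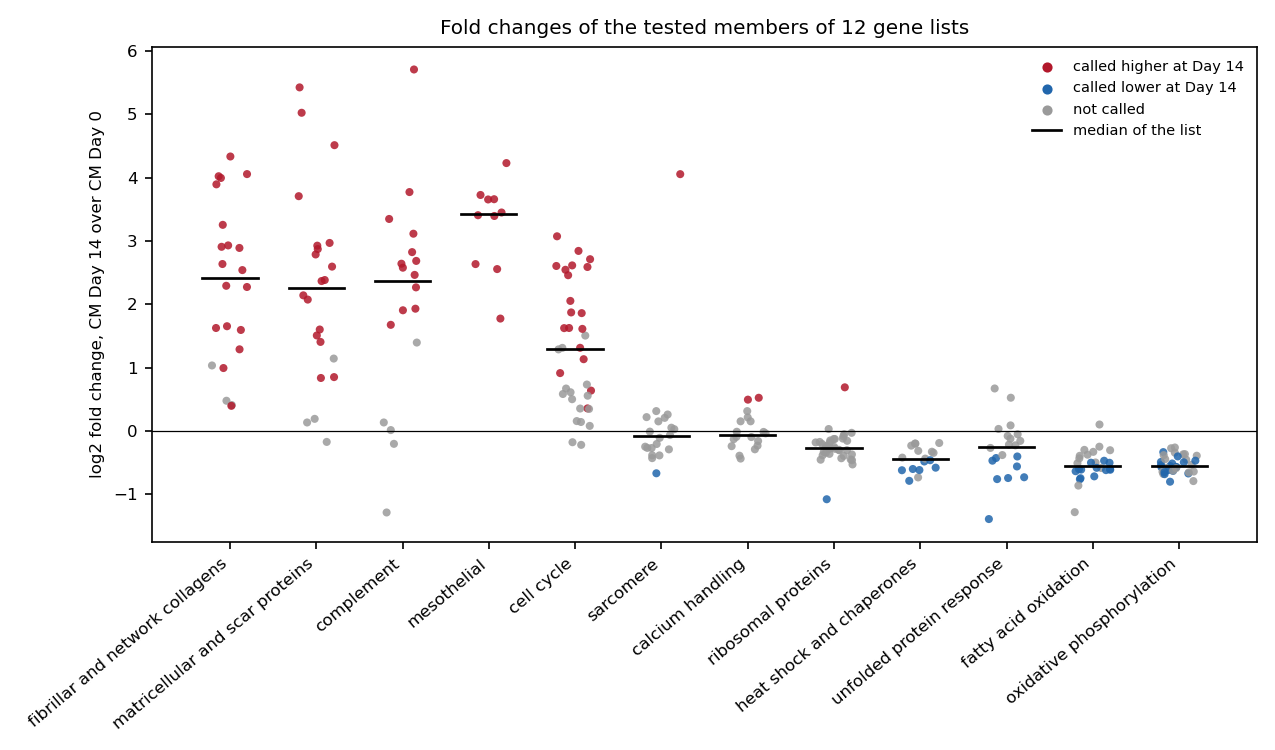
Log2 fold change (CM Day 14 over CM Day 0) of each tested member of 12 lists. Red points were called higher, blue lower and grey not called, and black bars are medians. Collagen, scar protein and mesothelial members lie far above 0, and fatty acid oxidation and oxidative phosphorylation members lie mostly below 0.

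Genes of mitochondrial energy supply held many that were lower, by small steps. Of 26 fatty acid oxidation genes 13 (50%) were lower and none higher, with a median of -0.55, and they summed to 3186 ± 253 CPM at Day 14 and 4573 ± 193 at Day 0 (SD, n = 4 each). With ribosomal RNA genes left out and no TMM scaling the sums of the days overlapped. They were 7756 to 10320 CPM at Day 14 and 8778 to 11100 at Day 0. Cpt2 had 28.6, 26.3, 25.1 and 29.6 CPM at Day 14, against 44.9, 57.1, 40.8 and 43.5 at Day 0. Cpt2, which readies fatty acids inside mitochondria, fell by the test (log2 fold change -0.76 ± 0.14, SE, adjusted p = 0.000545). Hadhb had 345, 318, 355 and 376 CPM at Day 14, against 538, 516, 554 and 512 at Day 0. Hadhb, of the trifunctional protein, changed by -0.60 ± 0.13 (SE, adjusted p = 0.00234). Acaa2 had 116, 84.2, 93.2 and 120.0 CPM at Day 14, against 149, 221, 152 and 171 at Day 0. Acaa2, a thiolase at the end of the cycle, changed by -0.75 ± 0.17 (SE, adjusted p = 0.00449). Uptake genes were lower too, with a change for Cd36 of -0.50 ± 0.15 (SE, adjusted p = 0.0294) and for Fabp3 of -0.62 ± 0.18 (SE, adjusted p = 0.0219). Every Day 14 library lay below every Day 0 library for 16 of the 26, and for 6.77% of all genes tested. The calls were 7 without Day 14 replicate 2, and 6 in a fit of the 8 libraries alone.

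Of 36 nuclear-encoded oxidative phosphorylation genes 18 (50%) were lower and none higher, and all 36 had a fold change below 0 (-0.80 to -0.26, median -0.56). Ndufa9 had 84.3, 61.99, 71.2 and 79.8 CPM at Day 14, against 99.4, 126, 102 and 110.0 at Day 0. Ndufa9, of complex I, changed by log2 -0.56 ± 0.12 (SE, adjusted p = 0.00368). Atp5a1 had 684, 553, 581 and 689.9 CPM at Day 14, against 796, 1020, 787 and 872 at Day 0. Atp5a1, of ATP synthase, changed by -0.47 ± 0.13 (SE, adjusted p = 0.014), and Uqcrc2, of complex III, by -0.52 ± 0.14 (SE, adjusted p = 0.0136). Of the 36 genes 28 were lowest in Day 14 replicate 2 and 28 highest in replicate 1, and 3 were called without replicate 2. The calls were 4 without Day 14 replicate 3, 10 without Day 14 replicate 4, and 6, 10 and 11 without Day 0 replicates 2, 3 and 4. With the 8 libraries alone 1 of the 36 was called, and with upper quartile scaling 11. Atp5a1 was among the calls lost without Day 14 replicate 2 or 3 or Day 0 replicate 2, and Uqcrc2 without Day 14 replicate 2 or Day 0 replicate 3. Ribosomal protein genes had the same order, 27 of 36 lowest in replicate 2 and 29 highest in replicate 1, with 1 higher (Rpl3) and 1 lower (Rps2), or 9 lower without Day 14 replicate 1 and 2 lower without Day 0 replicate 4. The 13 protein genes of the mitochondrial genome summed to 165200 ± 28880 CPM at Day 14 and 221500 ± 54030 at Day 0 (SD, n = 4 each) and none was called by edgeR (1 by DESeq2, 0 higher and 6 lower at an unadjusted p under 0.05), and mt-Co1 was at 32870, 35950, 40600 and 32290 CPM at Day 14, against 45740, 39810, 51600 and 38930 at Day 0.

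On the TPM scale no fatty acid oxidation or oxidative phosphorylation gene was called. Their medians there were -0.15 and -0.09, against 0.08 over all genes, so both lists still lay below the centre. With ribosomal RNA genes left out and no TMM scaling, the oxidative phosphorylation sums of the days overlapped too. They were 15430 to 22900 CPM at Day 14 and 18960 to 26790 at Day 0. Of 16 regulators of mitochondrial metabolism Ppargc1b was higher (log2 fold change 0.48 ± 0.16, SE, adjusted p = 0.0413), a call lost without 5 of the 8 libraries, and Klf15 lower. Each was 6.25% of the list, near the 8.04% higher and 5.71% lower over all genes. Ppargc1a, the main coactivator, averaged 52.9 ± 7.20 CPM at Day 14 and 55.7 ± 10.6 at Day 0, and Ppara 9.22 ± 0.273 and 9.69 ± 1.45. Of 22 glycolysis genes Slc16a3 and Pfkp were higher (9.09%) and Ldhb, Pgk1 and Eno3 lower (13.6%), but 1 was lower without Day 14 replicate 2, 3 or 4 or Day 0 replicate 2. The higher share was near that over all genes, so these single genes are no result about the list. Pfkp had 14.3, 13.6, 13.3 and 12.7 CPM at Day 14, against 8.67, 11.4, 8.84 and 9.53 at Day 0. Pfkp, a phosphofructokinase, rose by log2 0.49 ± 0.13 (SE, adjusted p = 0.0146). Ldhb had 226, 156, 176 and 207 CPM at Day 14, against 266, 362, 265 and 297 at Day 0. Ldhb, the heart form of lactate dehydrogenase, changed by -0.64 ± 0.16 (SE, adjusted p = 0.00763), and on log2(TPM + 1) by 0.05. Of 21 antioxidant genes 5 were lower, 8 without Day 14 replicate 1 and 3 with the 8 libraries alone. Prdx3 had 63.7, 43.5, 52.1 and 48.5 CPM at Day 14, against 84.5, 91.8, 90.98 and 78 at Day 0. Prdx3, the mitochondrial peroxiredoxin, changed by -0.73 ± 0.13 (SE, adjusted p = 0.000294), and Nqo1, a quinone reductase, by -0.72 ± 0.13 (SE, adjusted p = 0.000591).

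Protein folding genes held calls in the lower direction too. Of 17 heat shock and chaperone genes 7 were lower and none higher (median -0.44), and of 20 unfolded protein response genes 8 were lower and none higher (median -0.25). The heat shock calls were 3 without Day 14 replicate 2 or 3 and 4 without Day 14 replicate 4 or Day 0 replicate 1 or 2. The unfolded protein response calls were 4 without Day 14 replicate 3 or Day 0 replicate 3 and 5 without Day 0 replicate 1. With the 8 libraries alone 2 heat shock genes and 3 unfolded protein response genes were called lower. Hspa5 had 134, 132, 136 and 140.2 CPM at Day 14, against 187, 173, 216 and 173 at Day 0. Hspa5, the main chaperone of the endoplasmic reticulum, changed by log2 -0.47 ± 0.12 (SE, adjusted p = 0.0102), without overlap, a call lost without Day 0 replicate 3. Herpud1 had 21.03, 15.7, 15.3 and 20.9 CPM at Day 14, against 31.4, 34.5, 27.6 and 30.2 at Day 0. Herpud1, of its degradation system, changed by -0.76 ± 0.18 (SE, adjusted p = 0.00486), and Manf, a factor secreted under folding stress, by -0.73 ± 0.16 (SE, adjusted p = 0.00395). Dnaja1 had 17.6, 17.7, 19.9 and 18.2 CPM at Day 14, against 33.8, 25.4, 31.3 and 22.7 at Day 0. Dnaja1, a cytosolic co-chaperone, changed by -0.62 ± 0.13 (SE, adjusted p = 0.00245). Hspa1b shares most of its sequence with Hspa1a, so its value (log2 fold change -0.79 ± 0.26, SE, adjusted p = 0.0457) is uncertain, and 6 of the 8 tests that left out a library lost its call. No gene of either list was called on log2(TPM + 1). The heat shock median there was -0.08 and the unfolded protein response median 0.04, against 0.08 over all genes. With ribosomal RNA genes left out and no TMM scaling the sums of the days overlapped. Heat shock sums were 3844 to 4764 CPM at Day 14 and 3545 to 5707 at Day 0. Unfolded protein response sums were 1201 to 1520 and 1356 to 1490.

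Of 16 hypoxia genes 3 were lower (18.8%, against 5.71% over all genes). On the TPM scale none was lower and 1 was higher. With ribosomal RNA genes left out and no TMM scaling the sums overlapped. They were 1242 to 1551 CPM at Day 14 and 1196 to 1488 at Day 0. Bnip3 had 48.6, 41.97, 46.3 and 60.4 CPM at Day 14, against 88.5, 75.2, 104 and 72.9 at Day 0. Bnip3, which marks mitochondria for removal, changed by log2 -0.79 ± 0.15 (SE, adjusted p = 0.00116). The oxygen sensors Egln1 and Egln3 were lower too, and with the 8 libraries alone 1 of the 16 was. Of 18 genes of atrophy and autophagy 5 (27.8%) were lower, among them Map1lc3b, the autophagosome coat protein (log2 fold change -0.55 ± 0.14, SE, adjusted p = 0.0117). The lower calls were 3 without Day 0 replicate 2, 2 without Day 14 replicate 3 and 1 without Day 14 replicate 2 or with the 8 libraries alone. None of these 18 was called on the TPM scale. Their sums without ribosomal RNA genes and TMM scaling overlapped, at 1238 to 1755 CPM at Day 14 and 1300 to 1778 at Day 0. Of 15 tested Bcl2 family genes Bcl2 and Bok were higher and Bnip3, also on that list, lower. Bcl2 had 3.62, 4.56, 5.34 and 3.199 CPM at Day 14, against 2.22, 1.42, 2.31 and 1.72 at Day 0. Bcl2, which blocks mitochondrial cell death, rose by 1.13 ± 0.25 (SE, adjusted p = 0.00341). Of 24 immediate early genes Myc and Egr1 were higher and Hspa1b lower, and of 23 vascular growth genes Flt4 and Plvap were higher, shares near those over all genes, and each of these calls other than Flt4 was lost without 1 or more of the libraries. Actb, often used as a reference gene, was at 103, 89.4, 74.8 and 86.6 CPM at Day 14, against 53.3, 69.3, 37.1 and 49.9 at Day 0, which did not overlap, and was not called (adjusted p = 0.0673). Of 15 heart long noncoding RNAs Meg3, Dnm3os and Malat1 were higher, Malat1 at 3088 to 4221 CPM in Day 14 libraries against 2197 to 2704 in Day 0 libraries, but 1 was higher without Day 14 replicate 2 or 3 or without Day 0 replicate 1, 2 or 4.

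Day 14 was also set against its neighbours in the same fit, to place it in the course. Against Day 7 no gene was higher and 8 were lower at Day 14 (0.055% of 14540), with 831 genes (5.72%) at an unadjusted p under 0.05, and DESeq2 called 6 and 26. The 8 genes were Lox, Col5a1, Cthrc1, Adamts12, Spp1, Serpina3n, Serpinb1a and 2210407C18Rik. Lox averaged 6.20 CPM at Day 14 and 17.98 at Day 7 (log2 -1.54, adjusted p = 0.0488 by edgeR), and Cthrc1 0.747 and 3.24 CPM (log2 -2.11, adjusted p = 0.0488 by edgeR). Against Day 28, 1020 genes were higher (7.02%) and 965 lower (6.64%). Day 28 replicate 3 had the fewest reads (13503024) and the most ribosomal RNA (68.2%) of the 24 CM libraries. No test against Day 28 left it out. The comparisons with Day 0, Day 7 and Day 28 share the Day 14 libraries, so one is not independent support of another.

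Of the 24 genes named at the ends of the Day 0 comparison, 15 also differed between Day 14 and Day 28. Lox, Muc16, Col1a1, Col3a1, Myh7, Col1a2, Upk1b and C1s1 were higher at Day 14 than at Day 28, and Ptgds, Ano10, Shld1, Mcee, Ttll1, Plbd1 and Immp1l lower. Ptgds averaged 37.5 CPM at Day 14 and 91.1 at Day 28 (log2 -1.28, adjusted p = 0.0151 by edgeR). Over Day 0, 1, 3, 7, 14 and 28, Col1a1 averaged 1.43, 4.03, 79.8, 82.9, 28.9 and 8.05 CPM, and Lox 0.482, 1.98, 17.2, 17.98, 6.20 and 1.26 CPM, both past their top by Day 14. Muc16 averaged 2.71, 3.46, 6.97, 26.0, 34.2 and 6.10 CPM, and Sfrp2 0.0351, 0.126, 1.64, 3.57, 3.87 and 1.24 CPM, with the highest mean at Day 14. Myh7 averaged 6.17, 72.3, 56.5, 69.3, 103.4 and 30.3 CPM, high from Day 1 on. The fatty acid oxidation list summed on average to 4573, 4701, 3269, 3436, 3186 and 4229 CPM. The Day 28 level was above the highest Day 14 library in each of its 4 libraries.

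**Figure D5:**
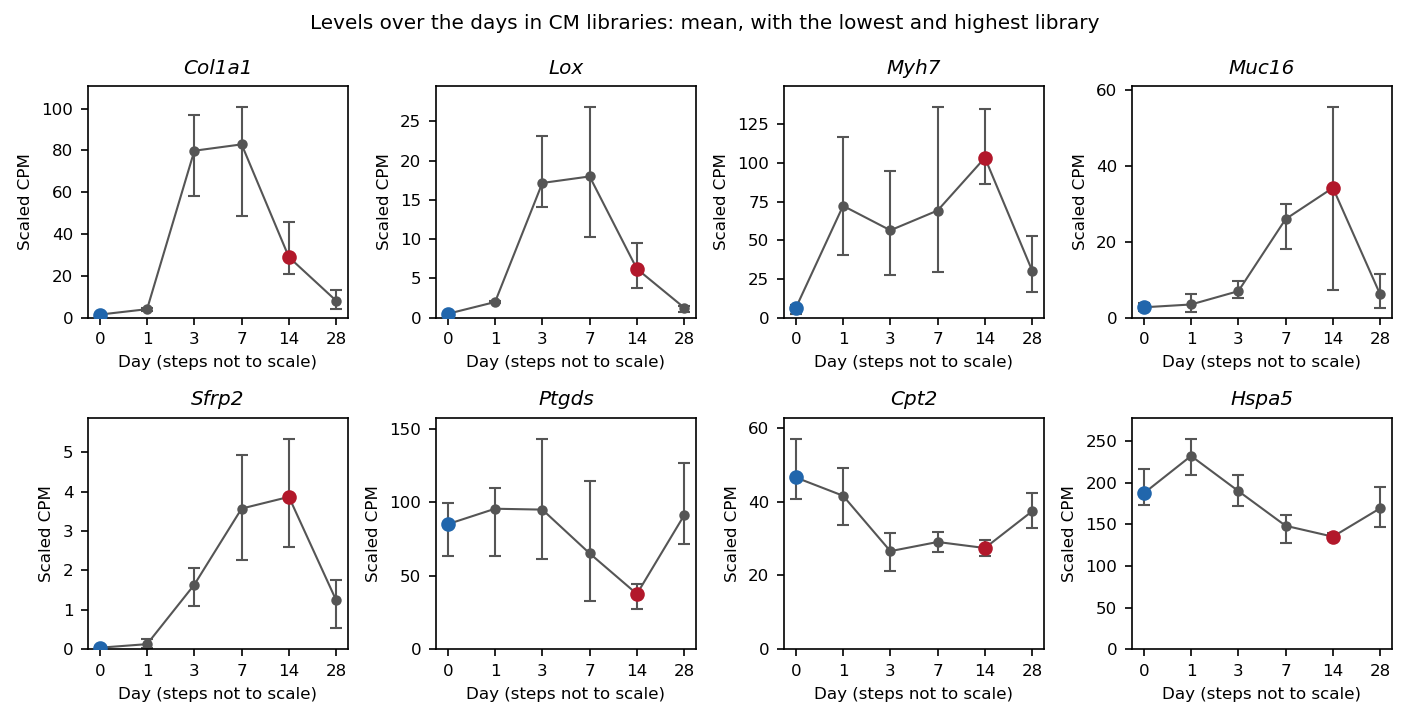
Mean CPM of 8 genes in CM libraries at Day 0, 1, 3, 7, 14 and 28 (equal steps, not to scale), with bars from the lowest to the highest of 4 libraries. Day 14 is red and Day 0 blue. Col1a1 and Lox lie below their Day 7 means at Day 14, while Muc16, Sfrp2 and Myh7 have their highest mean at Day 14, and Ptgds and Hspa5 their lowest.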

How the data were processed

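Total RNA of 24 cardiomyocyte (CM) libraries, 4 at each of 6 days, was used, with the other isolates only for levels. Per the study's methods, the authors made ribosomal RNA-depleted libraries, trimmed reads with Trim Galore, aligned them with STAR 2.28 to the mouse genome and quantified transcripts with Salmon. In the tables the authors deposited, Salmon's estimated counts and TPM are given per transcript for CM and endothelial libraries (137734 entries) and almost wholly per gene for fibroblast and hematopoietic libraries (51398 entries). Strand use was not given in the sources used here. Transcripts were summed to genes with the GRCm38 annotation and the expected counts rounded. Genes were tested with edgeR 4.0.16 (TMM scaling, filterByExpr, robust quasi-likelihood test, R 4.3.3) in one fit of all 24 libraries, with Benjamini-Hochberg adjustment at 0.05, and marker sums with exact permutation tests. Alternatives used limma 3.58.1 on deposited TPM (pseudocounts of 1 and 0.1, mean TPM of at least 0.1), DESeq2 1.42.0, other scalings and filters, a replicate block and each library left out.

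Named genes were the 12 highest and 12 lowest fold changes among called genes of at least 5 CPM without overlap, the study's 16 cell markers, Actb and Bcl2, and, from every list, at most 5 genes with the lowest adjusted p. The members and lists were chosen with earlier results of these data known. Read sums of 34103494 to 44560230 per Day 14 or Day 0 library limit precision for genes of few reads. No gene with 3 or fewer reads in each Day 0 library was given a fold change.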

Additional observations from a re-analysis of the deposited data

Results flagged for a closer look

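In 34 of 444 groups of 4 values the highest or lowest library lay far from the others by Dixon's test at the 95% level. Chance gives this in about 1 in 20 groups, or 22.2 of them. Day 14 replicate 1 lay above its group for H2-Aa (1.54 CPM), Rpl3 (48.7 CPM) and Schwann cell (28.6 CPM) and below its group for Cenpe (0.534 CPM). Day 14 replicate 2 lay above its group for Col1a2 (77.0 CPM), Col3a1 (112 CPM), Fap (0.322 CPM), Ptprc (0.991 CPM), Thbs1 (15.4 CPM), Ighm (8.60 CPM), Bgn (25.4 CPM), Fbn1 (16.6 CPM) and Loxl3 (0.942 CPM). Day 14 replicate 4 lay above its group for Flt1 (18.8 CPM) and Trem2 (0.394 CPM) and below its group for Lgals3 (1.64 CPM) and resting fibroblast (67.2 CPM). Day 0 replicate 1 lay above its group for Plac8 (0.0326 CPM), Il6ra (0.359 CPM) and Sox9 (0.261 CPM). Day 0 replicate 2 lay above its group for Actc1 (3198 CPM), Pgk1 (124 CPM), Timp1 (0.331 CPM), Tgfbr2 (6.68 CPM), Cxcl5 (0.0237 CPM), Hspb8 (144 CPM), Egln3 (35.0 CPM) and Map1lc3b (66.7 CPM) and below its group for Klf15 (7.74 CPM). Day 0 replicate 3 lay above its group for Ptprc (0.404 CPM) and Ccl2 (0.2201 CPM) and below its group for Fn1 (2.83 CPM) and atrial myocyte (269.5 CPM). Day 0 replicate 4 lay above its group for Cthrc1 (0.0479 CPM). Values are CPM, summed where a list is named, and the resting fibroblast, Schwann cell and atrial myocyte entries are lists.

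The change from Day 0 differed between Day 14 and another day for 15 genes of those named for their fold change, by contrasts of the edgeR fit. On the log2 scale the change at Day 14 was above that at Day 28 for Col1a1 by 1.85 (adjusted p = 0.00401), Upk1b by 1.49 (adjusted p = 0.00515), Col1a2 by 1.59 (adjusted p = 0.00398), Myh7 by 1.76 (adjusted p = 0.0316), Col3a1 by 1.76 (adjusted p = 0.00102), Lox by 2.35 (adjusted p = 0.0009), Muc16 by 2.59 (adjusted p = 0.00682) and C1s1 by 1.33 (adjusted p = 0.0185). It differed from that at Day 28 in the other direction for Plbd1 by -0.63 (adjusted p = 0.00515), Immp1l by -0.59 (adjusted p = 0.0239), Mcee by -0.78 (adjusted p = 0.016), Ttll1 by -0.65 (adjusted p = 0.0147), Shld1 by -0.80 (adjusted p = 0.0191), Ano10 by -0.82 (adjusted p = 0.0193) and Ptgds by -1.28 (adjusted p = 0.015). For Lox the change at Day 14 differed from that at Day 7 by -1.53 (adjusted p = 0.0488). These differences share the Day 14 libraries.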

How the results depend on the processing

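Of 181 named genes called, 180 kept the call with RLE scaling, 178 with upper quartile scaling, 178 with ribosomal RNA genes left out and 181 with DESeq2, against 131 of 172 in a fit of the 8 libraries alone and 40 of 143 on log2(TPM + 1). On that last scale 5 of 9 mesothelial and 9 of 15 complement genes were called higher. The higher calls there were 1 of 6 resident macrophage, 3 of 17 cytokine and chemokine and 1 of 16 interferon response genes. Ldhb (0.051 and 0.051), Pgk1 (0.10 and 0.095), Hsph1 (0.062 and 0.034) and Dnajb9 (0.040 and 0.028) changed sign on log2(TPM + 0.1) and log2(TPM + 1), where the median of all genes was 0.25 and 0.08. Against Day 0, higher and lower counts were 746 and 175 with 8 libraries, 388 and 3 on log2(TPM + 0.1), 207 and 1 on log2(TPM + 1), and 630 and 421 at a mean of at least 1 CPM, where fewer genes were tested. Lower counts were 409 with no low count filter and 520 with upper quartile scaling. Leaving out 1 library gave 765 to 1183 higher and 275 to 1070 lower genes, the lowest of both without Day 14 replicate 2, and 42 named genes lost their call in at least one such test. Against Day 7, DESeq2 called 6 higher and 26 lower. There, lower counts were 0 on both TPM scales and at 1 CPM, 3 with no filter and 3 with upper quartile scaling. Against Day 28, higher and lower counts were 37 and 1 on log2(TPM + 0.1), 18 and 0 on log2(TPM + 1), and lower was 499 with no filter. The cause was not tested. Genes of few reads limit what can be detected.

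Replicate numbers were not treated as pairs, since the mice of the days differed. Same-numbered deviations correlated at 0.013, -0.029, 0.401 and 0.315, and differently numbered ones at -0.4 to 0.399. Whether libraries of the same number share an effect was not tested. With the replicate block 1410 genes were higher and 1185 lower than at Day 0, 1 and 15 against Day 7, and 1589 and 1613 against Day 28.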
